A study of Schizosaccharomyces pombe with 144 samples.

Results

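Cohesin is the protein ring that holds sister chromatids together, and fission yeast builds it from different subunits when cells grow and when they go through meiosis. The 10 genes described here encode the ring of both kinds, its loader, its regulator Pds5, and the protease that opens it together with that protease's inhibitor. They were chosen by name (rec8, rad21, rec11, psc3, psm1, psm3, mis4, pds5, cut1 and cut2), and all 10 stand among the 5157 genes of the deposited expression table. The table holds RPKM values, in which reads are divided by gene length and by library size, so levels of different genes can be set side by side.

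The study followed histone H3 lysine 9 methylation through meiosis, and the total RNA libraries served to check how synchronously the cultures moved. The time course has 10 such libraries, 9 from hours 0 to 8 of meiosis and 1 from an asynchronous culture in mitosis, which is the growing culture meant by mitosis below. The other 134 samples of the series are not analysed here. All 10 libraries came from 1 strain, SPB2819, with the wild-type gene for the methyltransferase Clr4. It is a diploid with 2 copies of the minus mating type (h-/h-), heteroallelic for ade6 (ade6-M210/ade6-M216). Both copies of pat1, whose kinase keeps cells out of meiosis, are replaced by the drug marker NatR, and the cells carry the analog-sensitive allele pat1-as(L95A)::HygR instead. The strain also has a lacO array next to a centromere (cen2(D107)::KanR-ura4+-lacO), the GFP-tagged repressor that binds it (his7+::lacI-GFP), and lys1::MatPc-Bleo. Cultures grew in YES medium at 25 °C or 30 °C, and the labels do not say which of both applied here, nor what event sets 0 h. There is 1 library per stage, so no difference between stages has a replicate check and no test was made. Bars and intervals below are 95% intervals that cover counting error only.

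In the cohesin ring the SMC proteins Psm1 and Psm3 are closed by a kleisin, which is Rad21 in growing cells and largely Rec8 in meiosis. A further subunit of the SA family binds the kleisin. Psc3 is the SA subunit of growing cells and works with Rec8 around centromeres in meiosis, while Rec11 works with Rec8 along chromosome arms. At anaphase the separase Cut1 cleaves the kleisin once its inhibitor, the securin Cut2, has been destroyed. The rec8 transcript is a known target of Mmi1, an RNA-binding protein that recognises repeats of the hexamer TNAAAC and brings about removal of meiotic transcripts in growing cells. The MluI cell cycle box, ACGCGT, is the sequence bound by MBF, the factor for genes of the G1 to S transition and of premeiotic DNA replication.

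These 2 sequence features set some of the genes apart. A box was found in the promoter window of rec8, rec11, psm1, psm3 and pds5, and in none of the other 5 genes. The window ran from 250 bases before to 50 bases after the annotated transcript start in RefSeq's ASM294v3 assembly. Of all 5112 promoter windows, 166 held the box, a share of 3.25%. The box reads the same on both strands. The stretches that carry it are printed 5′ to 3′ on the strand of the gene, with each box in capitals. They lie at II:2568864-2568937 for rec8 (plus strand), III:1227107-1227162 for rec11 (minus strand) and II:2540663-2540715 for psm1 (plus strand). Those of psm3 and pds5 lie at I:1224859-1224898 (minus strand) and I:1911772-1911839 (plus strand).
rec8: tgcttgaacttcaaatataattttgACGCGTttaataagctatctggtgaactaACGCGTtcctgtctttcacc
rec11: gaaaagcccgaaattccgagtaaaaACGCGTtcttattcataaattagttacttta
psm1: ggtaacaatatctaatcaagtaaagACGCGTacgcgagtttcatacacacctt
psm3: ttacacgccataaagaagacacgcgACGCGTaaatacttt
pds5: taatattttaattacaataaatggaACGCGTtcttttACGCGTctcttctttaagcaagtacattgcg

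Both rec8 boxes begin within 50 bases of the transcript start, at positions -49 and -20, and the rec11 box lies farther out, at -169. Those of psm1 and psm3 begin at -28 and -15, and pds5 has a pair at -51 and -39. Of the other motifs searched on both strands, the forkhead core GTAAACA or GTAAATA was in the window of 7 of the 10 genes, all but rec8, psc3 and psm1, and in 29.3% of all windows. The Ste11 core TTCTTTG was in psm3 and mis4 and in 9.94% of all windows. In psm3 the forkhead match at -11 overlaps the MluI box. A match says only that the letters are there, and psc3 had none of these motifs.

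The rec8 transcript held 15 TNAAAC hexamers on its sense strand, or 8.03 per kilobase of spliced length. Of 5113 transcripts 99.7% had a lower density, and the median was 1.64 per kilobase. The rec11 transcript held 14, or 4.38 per kilobase, with 96.7% of transcripts lower. The transcripts of their mitotic counterparts had densities below the median, with 4 hexamers in rad21 (1.22 per kilobase) and 3 in psc3 (0.746 per kilobase). By number neither is low, since the median transcript holds 3. The 6 other genes lay between 1.64 per kilobase for cut2 and 2.96 per kilobase for psm1. Within the 1686-base coding sequence of rec8 (chromosome II, plus strand) 6 of the 11 coding hexamers lie between bases 1046 and 1247, shown here with the hexamers in capitals.
rec8 coding bases: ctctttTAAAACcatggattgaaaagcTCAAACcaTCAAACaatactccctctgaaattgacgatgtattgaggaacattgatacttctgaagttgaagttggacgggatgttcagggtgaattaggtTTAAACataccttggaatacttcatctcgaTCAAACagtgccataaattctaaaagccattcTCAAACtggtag

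The libraries were scaled to 14998460 reads at 6 h and to between 18125519 and 20734255 reads at the other stages. The 10 genes were covered by 106 reads (rec8 in mitosis) to 10353 reads (psm3 at 0 h) per library. Known stage genes (ste11, mei2, mei4, spo6 and isp3) moved through the course. All 5 were already higher at 0 h than in mitosis by the 4-fold rule given below, against 9.29% of all genes. Of these ste11 and mei2 were highest at 0 h, at 207 and 1240 RPKM. The spore coat gene isp3 took 0.00918% of all reads in mitosis and 0.681% at 0 h. It took 2.85% at 4 h and 13.6% at 8 h. RPKM values are relative to the total of a library, and the median change over all genes tested was 0.54 (log2) at 0 h over mitosis and -0.72 at 6 h over 0 h. Counts are therefore given a further time on a rescaled basis, with every library divided by the median over genes of its ratio to the mean library. RNA came from whole cultures, so fewer cells at a stage and less RNA per cell cannot be told apart. The use of strand in the authors' counting is not given in the sources used here. At least 1 annotated RNA on the opposite strand overlaps each of the 10 genes, and a protein-coding one overlaps rad21 (pof3), psc3 and cut1 (mgl1), so reads of such partners may be included.

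A gene was called higher or lower when log2(RPKM + 1) differed by 2 or more, which is 4-fold, and the higher of both libraries had at least 5 RPKM. All 10 genes met this minimum in every comparison. At 0 h over mitosis 6 of the 10 genes were higher by this rule, namely rec8, rec11, psm1, psm3, mis4 and pds5, against 9.29% of all genes tested. After rescaling 3 were, namely rec8, rec11 and psm3, against 5.93% of all genes. None was lower, with 3.62% of all genes lower. The median change of the 10 genes was 2.20 (log2), or 1.72 after rescaling, where that of all genes was 0.54 and 0.03. At any hour over mitosis 7 of the 10 were higher (all but rad21, psc3 and cut1), against 20.1% of all genes, and none was lower, against 12% of all genes. After rescaling 5 were higher at any hour, against 18.5% of all genes, since mis4 and pds5 no longer passed. Hour by hour, 5 genes were higher at 1 h (8.7% of all genes), 4 at 2 h (8.11%) and 6 at 3 h (7.98%). The same 3 genes, rec8, rec11 and cut2, were higher than in mitosis in each library from 4 h to 8 h. The share of all genes there was 8.58%, 9.16%, 9.77%, 8.92% and 9.77%. After rescaling cut2 no longer passed at 4 h, where rec8 and rec11 did, against 5.9% of all genes.

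**Figure D1:**
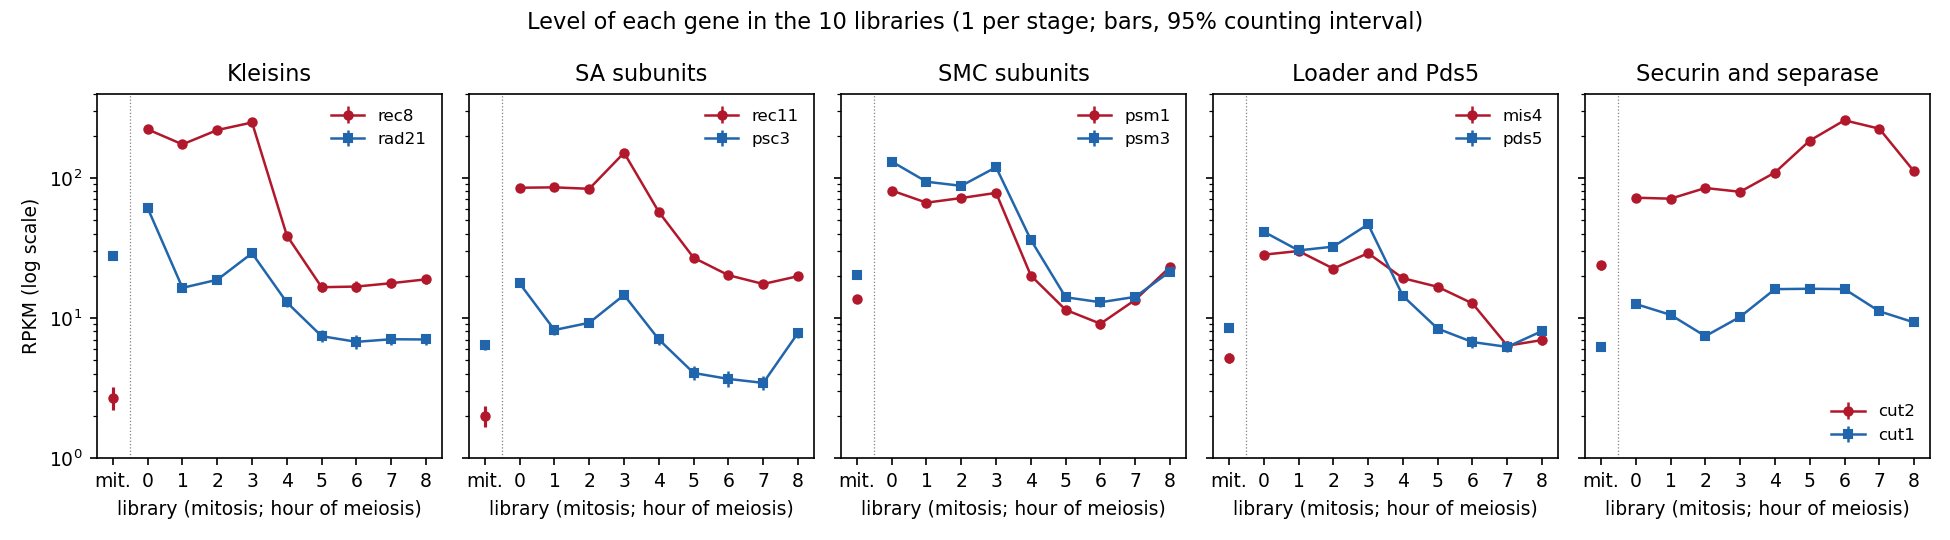
RPKM of the 10 genes (vertical axis, log scale) in mitosis and at hours 0 to 8 of meiosis (horizontal axis), in panels by role; each point is 1 library and the bar its 95% counting interval. The genes rec8, rec11, psm1 and psm3 are high from 0 h to 3 h and drop at 4 h. The level of rec8 is 38.7 RPKM at 4 h after 248 RPKM at 3 h. At 1 h rad21 is at 0.269 and psc3 at 0.465 times its level at 0 h. The genes named first are there at 0.717 (psm3) to 1.01 (rec11) times. The level of cut2 climbs to 257 RPKM at 6 h.

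Of the kleisins, rec8 was low in mitosis and high from the start of the course. Its level was 2.67 RPKM in mitosis (2.19 to 3.23) and 222, 173, 219 and 248 RPKM at 0, 1, 2 and 3 h. It then stood at 38.7, 16.5, 16.7, 17.7 and 18.8 RPKM from 4 h to 8 h. At 0 h the level was 83.0 times that in mitosis (68.6 to 102), and 99.5% of the genes tested had a smaller change. Even the lowest hour, 5 h, was 6.19 times as high as mitosis (5.03 to 7.69). The levels thus formed a plateau over 4 hours and a lower tail that stayed above the growing culture.

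The mitotic kleisin gene rad21 behaved differently. It had 27.6 RPKM in mitosis and 60.8, 16.4, 18.7, 28.9, 12.9, 7.39, 6.74, 7.03 and 7.00 RPKM from 0 h to 8 h. The 0 h library was the highest of the 10, at 2.20 times mitosis (2.08 to 2.33), or 1.54 times after rescaling. From 1 h on the level was near or below that of mitosis, and from 4 h to 8 h it was lower by 2-fold or more on the log2(RPKM + 1) scale. In the same 5 libraries 8.6%, 17.6%, 28.5%, 29.6% and 19.3% of all genes were lower than in mitosis by that rule. No hour reached the 4-fold rule on that scale, and at 6 h the difference from mitosis was -1.89 (log2). At 6 h mitosis was 4.10 times as high in RPKM (3.64 to 4.63), or 3.47 times after rescaling.

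Within a library the ratio of rec8 to rad21 does not depend on how libraries are scaled. It was 0.0967 in mitosis (0.0787 to 0.118), where rad21 was thus 10.3 times as high as rec8. At 0 h the ratio was 3.65 (3.51 to 3.79), and at 1, 2 and 3 h it was 10.6, 11.7 and 8.58. The highest value, at 2 h, had an interval of 11.0 to 12.5, which overlaps that at 1 h (9.90 to 11.3). From 4 h to 8 h the ratio lay at 3.00, 2.24, 2.48, 2.51 and 2.69. So rec8 transcript exceeded rad21 transcript at all 9 hours and fell short of it in mitosis. As a share of both kleisins, rec8 made up 92.1% at 2 h, 69.1% at 5 h and 8.82% in mitosis.

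The SA subunits showed a like order. The meiotic gene rec11 had 1.98 RPKM in mitosis (1.65 to 2.35) and 84.9, 85.4, 83.5 and 151 RPKM from 0 h to 3 h. It had 57.0, 26.9, 20.2, 17.4 and 19.8 RPKM from 4 h to 8 h. The first 3 hours were level and 3 h stood above them. At 0 h rec11 was 43.0 times as high as in mitosis (36.1 to 51.6), and at 6 h 10.2 times.

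Its mitotic counterpart psc3 was the lowest of the 10 genes at 1 h and from 4 h to 7 h. It had 6.42 RPKM in mitosis and 17.6, 8.19, 9.22, 14.5, 7.00, 4.04, 3.66, 3.43 and 7.81 RPKM from 0 h to 8 h. It was highest at 0 h, as rad21 was. At 3 h psc3 was 2.27 times mitosis (2.04 to 2.52), where rad21 was 1.05 times mitosis (0.980 to 1.12). At 8 h psc3 was back to 1.22 times mitosis (1.08 to 1.37). No hour passed the 4-fold rule against mitosis.

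The ratio of rec11 to psc3 was 0.308 in mitosis (0.252 to 0.374), so psc3 was 3.25 times as high there. It was 4.82, 10.4, 9.05 and 10.4 from 0 h to 3 h, and 8.14, 6.65, 5.50, 5.09 and 2.54 from 4 h to 8 h. It stood above the ratio of the kleisins, with separate intervals, in mitosis, at 0 h and from 3 h to 7 h. At 2 h it stood below, at 9.05 (8.37 to 9.80), while rec8 over rad21 was 11.7 (11.0 to 12.5). At 4 h it was 8.14 (7.42 to 8.94) while rec8 over rad21 was 3.00 (2.75 to 3.29), and at 8 h the 2 ratios, 2.54 (2.30 to 2.81) and 2.69 (2.38 to 3.05), had overlapping intervals.

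**Figure D2:**
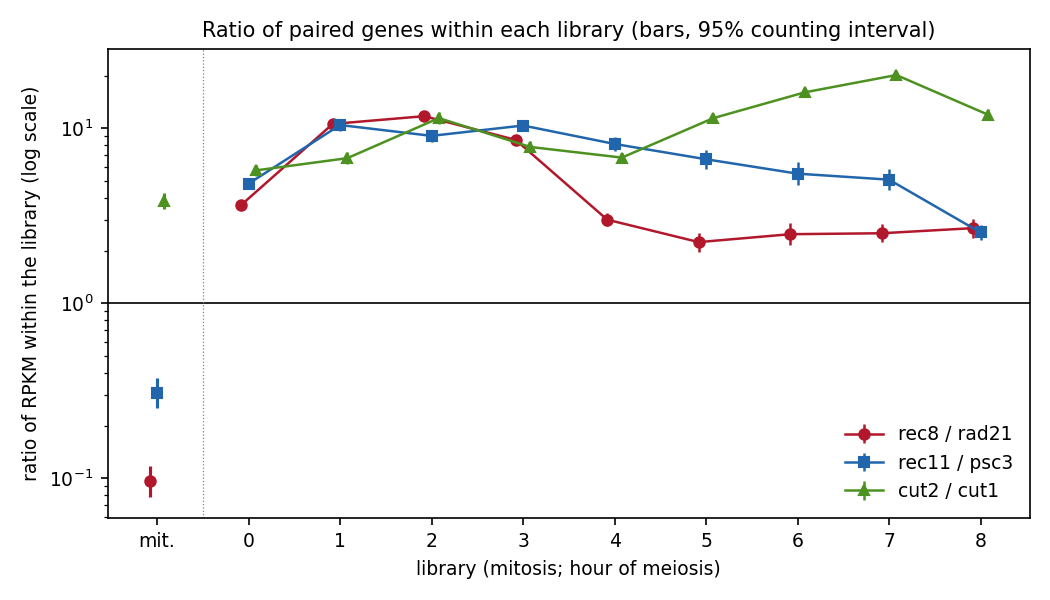
Ratio of RPKM between genes of a pair within each library (vertical axis, log scale) against the library (mitosis, then hours 0 to 8 of meiosis); bars are exact 95% counting intervals and the line at 1 marks equal levels. In mitosis rec8 over rad21 is 0.0967 and rec11 over psc3 0.308, and both ratios are above 1 at every hour of meiosis, while cut2 over cut1 peaks at 20.1 at 7 h.

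Set against each other, the kleisins together (rec8 and rad21) had 3.61 times the summed RPKM of the SA genes (rec11 and psc3) in mitosis and 2.76 times at 0 h. It was 2.03, 2.57 and 1.68 times at 1, 2 and 3 h. At 4 h and 5 h the quotient was 0.807 and 0.775. From 6 h to 8 h it was 0.985, 1.184 and 0.935.

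The SMC genes encode the long arms and ATPase heads of the ring, in both growing and meiotic cells. The gene psm1 had 13.6 RPKM in mitosis and 81.1, 66.4, 71.7, 78.0, 20.02, 11.4, 9.08, 13.4 and 23.1 RPKM from 0 h to 8 h. The gene psm3 had 20.2 RPKM in mitosis and 131, 93.7, 87.6, 119, 36.0, 14.0, 12.9, 14.1 and 21.4 RPKM. Both were several times as high at 0 h as in mitosis, at 5.98-fold (5.63 to 6.35) for psm1 and 6.48-fold (6.15 to 6.83) for psm3. As deposited both were lowest at 6 h, below mitosis. After rescaling both were lowest at 5 h, at 11.6 RPKM for psm1 and 14.2 RPKM for psm3. The ratio of psm1 to psm3 stayed between 0.556 (at 4 h) and 1.08 (at 8 h), so their courses ran close together while the kleisin pair diverged. At 8 h psm1 was 1.70 times as high as in mitosis (1.58 to 1.83), and psm3 1.06 times (0.988 to 1.14).

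Mis4 loads cohesin onto chromatin together with Ssl3, and Pds5 binds the ring and governs its stability. The gene mis4 had 5.18 RPKM in mitosis and 28.3, 30.0, 22.5, 29.0, 19.2, 16.6, 12.7, 6.32 and 6.94 RPKM from 0 h to 8 h. It was 5.45 times as high at 0 h as in mitosis (4.98 to 5.99). On the deposited scale its level declined step by step between 3 h and 7 h, while the rescaled values at 4, 5 and 6 h were 16.2, 16.9 and 17.03. At 5 h it was still 3.21 times as high as in mitosis. The gene pds5 followed the SMC genes, with 8.50 RPKM in mitosis and 41.2, 30.3, 32.2, 46.5, 14.3, 8.37, 6.71, 6.20 and 8.04 RPKM from 0 h to 8 h. At 5 h it was 0.985 times mitosis (0.883 to 1.10), an interval that includes 1.

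**Figure D3:**
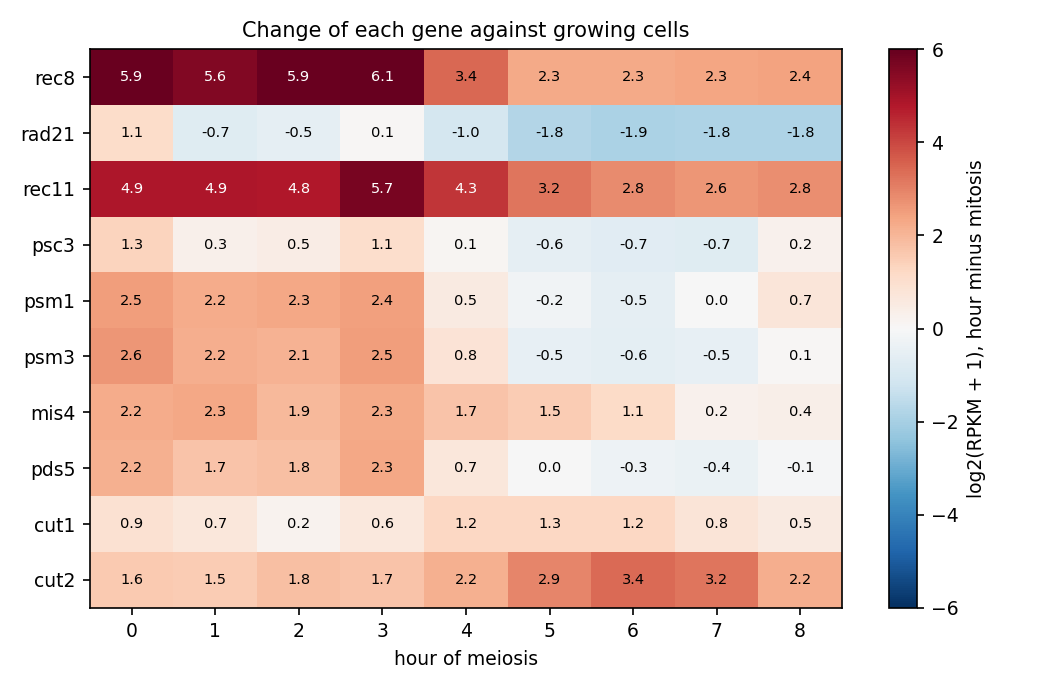
Difference of log2(RPKM + 1) between each hour of meiosis and mitosis for the 10 genes (rows) at hours 0 to 8 (columns); red is higher and blue lower than mitosis, and each cell prints its value. The cells of rec8 and rec11 are red at all hours, rad21 is blue at 1 h, at 2 h and from 4 h on, and the other ring genes turn pale after 3 h.

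Most ring genes dropped together between 3 h and 4 h. A 2-fold rule (1 on the log2 scale) was used for this step, which was picked after the course had been seen. Of the 10 genes 6 were lower at 4 h than at 3 h by this rule (rec8, rad21, rec11, psm1, psm3 and pds5), against 5.07% of all genes tested, 250 of 4935. The same 6 were lower after rescaling, against 5.29%. The median change of the 10 genes was -1.25 (log2), while the median of all genes was 0.04. By the 4-fold rule rec8 alone was lower, against 0.628% of all genes.

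The size of the step differed among the ring genes. The level at 4 h was 0.156 times that at 3 h for rec8 (0.147 to 0.165), 0.257 times for psm1, 0.303 times for psm3 and 0.308 times for pds5. It was 0.378 times for rec11 and 0.445 times for rad21. Neither psc3, at 0.481 times (0.432 to 0.535), nor mis4, at 0.662 times, passed the rule on the log2(RPKM + 1) scale. The separase and securin genes went the other way, at 1.58 times (1.46 to 1.70) for cut1 and 1.37 times (1.29 to 1.46) for cut2.

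The 5 genes with an MluI box in the window printed above are all among these 6, and rad21 is the one without. Among the other genes of the table, 142 with a box and 4143 without were tested at this step. Of those with a box 61 were lower at 4 h by the 2-fold rule, or 43.0%, and of those without 157, or 3.79%. The median change was -0.79 (log2) with a box and 0.05 without. At 0 h over mitosis the 4-fold rule called 31 of 142 genes with a box higher, or 21.8%, and 8.74% of those without. This comparison was chosen after the members' values had been seen, and it tests nothing about the factor.

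**Figure D4:**
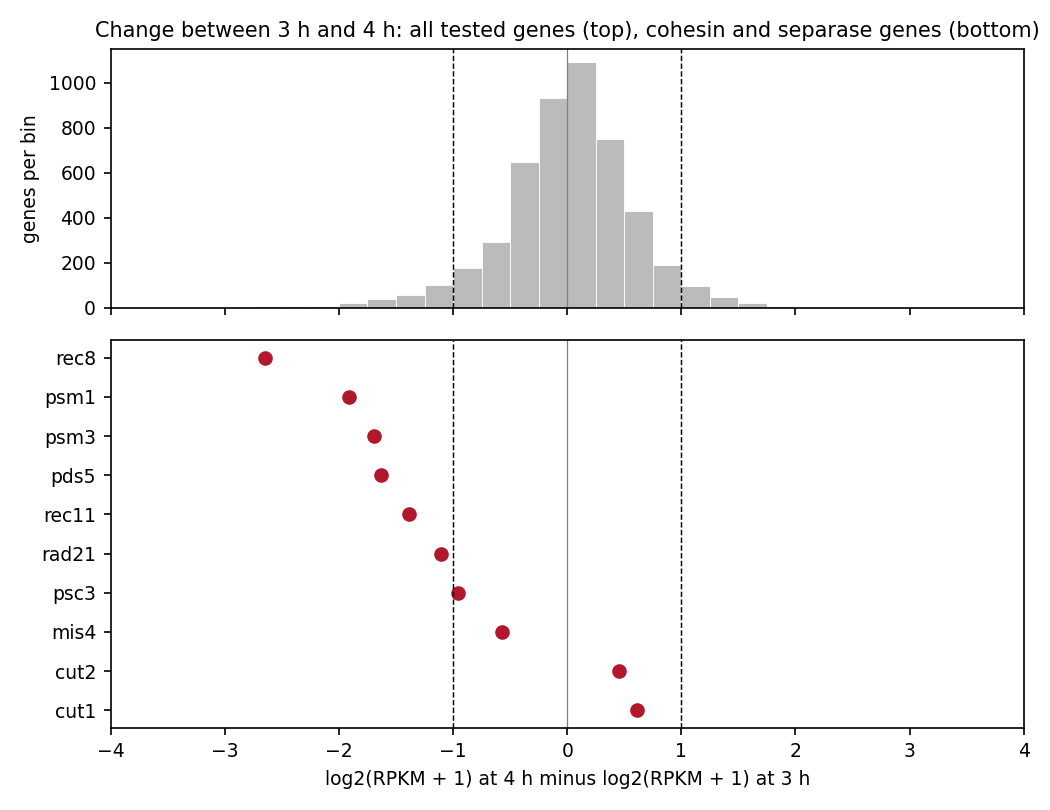
Distribution over all genes tested of the difference in log2(RPKM + 1) between 4 h and 3 h (upper panel, genes per bin of 0.25) and the value of each cohesin and separase gene on the same axis (lower panel); dashed lines mark 2-fold. The points of 6 genes lie left of the lower line, from rec8 at -2.65 to rad21 at -1.11, and those of cut1 and cut2 lie right of 0.

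Over the later course most ring genes stayed low. At 4 h the genes 4-fold lower than at 0 h were rec8 and rad21, against 1.94% of all genes. There were 5 such genes at 5 h (4.97% of all genes) and 6 at 6 h (10.7%). At 7 h 7 genes were lower (10.3%) and at 8 h 5 genes (4.77%). Every gene but mis4, cut1 and cut2 was 4-fold lower than at 0 h at some hour, which is 7 of 10 against 13.5% of all genes. After rescaling 4 of 10 were, against 4.82% (rec8, rad21, psm1 and psm3). As deposited mis4 fell just short of the rule at 7 h, at -1.998 (log2), where 0 h was 4.47 times as high in RPKM (4.11 to 4.87). None of the 10 was 4-fold higher than at 0 h, against 7.79% of all genes. After rescaling cut2 was, against 11.8%.

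Separase and securin had a course of their own. The securin gene cut2 had 23.7 RPKM in mitosis and 72.1, 70.9, 84.6, 79.5, 109, 184, 257, 224 and 111 RPKM from 0 h to 8 h. It was highest at 6 h, at 10.9 times mitosis (9.98 to 11.9), and was the highest of the 10 genes from 4 h on. The separase gene cut1 had 6.18 RPKM in mitosis and 12.5, 10.5, 7.40, 10.2, 16.03, 16.1, 16.04, 11.1 and 9.27 RPKM from 0 h to 8 h. At 5 h it was 2.61 times as high as in mitosis (2.40 to 2.84). As deposited its highest and lowest hours differed 2.18-fold, the smallest range of the 10 genes within the course, where rec8 differed 15.0-fold. After rescaling cut1 ran from 7.16 RPKM at 2 h to 21.6 RPKM at 6 h. The ratio of cut2 to cut1 was 3.83 in mitosis (3.44 to 4.26), 5.75 at 0 h and 20.1 at 7 h (19.0 to 21.4).

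The order of levels turned over between these phases. In mitosis rad21 and cut2 were highest, and rec8 and rec11 lowest with overlapping intervals. From 0 h to 3 h rec8 was highest and psc3 or cut1 lowest. At 8 h psm1, psm3, rec11 and rec8 followed cut2, and each overlapped its neighbour.

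Genes that work with cohesin were read from lists alongside. Of 8 genes for cohesin loading, removal and protection (ssl3, wpl1, eso1, sgo1, moa1, hhp1, hhp2 and par1), none was called higher at 0 h over mitosis, where 9.29% of all genes were, a share under 1 gene of 8. The change of moa1 was past 4-fold there, at 2.22 (log2), but its level at 0 h lay under the minimum of 5 RPKM. At 4 h over 3 h wpl1, which releases cohesin, and eso1, which acetylates Psm3, were 2-fold lower. That is 2 of the 8 genes, against 5.07% of all genes, and no other gene of the list was. The level of eso1 at 4 h was 20.4 RPKM, against 63.4 RPKM at 3 h. Shapes unlike the ring appeared for moa1 and sgo1, which act with Rec8 at centromeres. The mono-orientation gene moa1 was listed at 0 in mitosis and had 3.65 RPKM at 0 h and 34.1 RPKM at 4 h, and it was back at 4.37 RPKM at 6 h. The protector of centromeric Rec8, sgo1, had 16.1 RPKM in mitosis, 52.4 RPKM at 0 h and 133 and 138 RPKM at 4 h and 5 h. In the same list par1 showed no such late rise. It was highest at 1 h, at 179 RPKM, and had 110 RPKM at 4 h and 49.1 RPKM at 7 h. The genes of the casein kinases that phosphorylate Rec8 and Rec11 were higher late, with hhp1 at 573 RPKM at 8 h and 116 RPKM in mitosis. At 6 h hhp2 had 184 RPKM, against 27.8 RPKM in mitosis.

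The other complexes with SMC proteins are condensin and Smc5-Smc6. None of their 13 genes was called higher at 0 h over mitosis, which is near the 9.29% of all genes. Of the 5 condensin genes none passed the 4-fold rule at 6 h over 0 h either (where 4.2% of all genes were higher and 10.7% lower). Over both comparisons their median change was 0.15 and 0.95 (log2), where that of all genes was 0.54 and -0.72. Of the 8 Smc5-Smc6 genes 3 (smc5, smc6 and nse1) were lower at 6 h over 0 h, against 10.7% of all genes, or 1 after rescaling, against 3.15%. The linear element genes, whose products form the axis structures on meiotic chromosomes, had a course like those of rec8 and rec11. All 5 (rec10, rec25, rec27, mug20 and hop1) were 4-fold higher at 0 h than in mitosis with a median of 4.33 (log2), against 9.29% of all genes. All 5 were 2-fold lower at 4 h than at 3 h, against 5.07% of all genes. The level of hop1 was 0.851 RPKM in mitosis, 312 RPKM at 3 h and 64.5 RPKM at 4 h.

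Over the 10 libraries the courses of log2(RPKM + 1) most like that of rec8 were, of the 3716 named genes compared, mek1 (Pearson r = 0.998), rec15 (0.993), arp1 (0.991), bqt1 (0.991) and mug10 (0.990). Mek1 is a meiotic kinase, Rec15 a recombination protein and Bqt1 a bouquet protein. The likest to rec11 were crs1 (0.996), a meiotic cyclin gene, mug20 (0.996), mug55 (0.994), ctp1 (0.989) and rec25 (0.986). Of these, mug20 and rec25 are linear element genes. Between rec8 and rec11 themselves r was 0.948. The genes most like rad21 were mod5 (0.982), mcs4 (0.974), agn1 (0.967), ssb1 (0.963) and erg4 (0.959), and r between rad21 and rec8 was 0.502. For psc3 they were apm4 (0.977), pcd1 (0.972), gms1 (0.966), sec10 (0.958) and pam17 (0.954). These values describe 10 points that share libraries and their scaling, and neighbouring hours are not independent.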

How the data were processed

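Per the labels' protocols, total RNA of each stage went into 1 library made with a kit that keeps strand. RPKM values for 5157 genes were deposited, per the file headers, and the stage named in a column heading was matched to that in the title of the sample. The submitters' processing notes name STAR 2.7.3a, Bowtie 1.2.2, SAMtools 1.9, bedtools 2.26.0 and 2.27.1, cutadapt 1.18 and bcl2fastq 1.17 with ASM294v2 and mm10 as builds. How the authors counted, with which annotation and whether by strand, is not given in the sources used here. The authors also deposited columns named TPM, per the file headers, which are treated here as a score. Their quotient to RPKM takes 10 values in turn over the rows of each library, the highest 1.72 times the lowest, so they served only as an alternative.

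RPKM times length and depth gave whole reads, within 1e-05 of a read, for 5157 of 5157 genes (100%) once the depth of each library and the length of each gene had been found as whole numbers. These reads served for counting intervals alone (exact Poisson, exact Clopper-Pearson for ratios, 95%), since 1 library per stage allows no count test. The calculation was checked on simulated data. Calls compare log2(RPKM + 1) by the 4-fold rule with 5 RPKM or more in at least 1 library, which is no test. A median ratio of each library to the geometric mean library gave the rescaled values.

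The members and the gene lists were chosen with earlier results of these data known. The text names all 10 members, members of the lists past the size rule or used to describe a list, and the 5 genes most like each of rec8, rec11, rad21 and psc3. Values of sgo1, hhp1 and par1 beyond that were chosen after they had been seen. Sequences and overlaps are from RefSeq's ASM294v3, of which 86.5% of the table's genes matched a promoter by symbol or systematic ID. The comparison of protein sequences was not run. The software was SciPy 1.17.1, NumPy 2.4.6, pandas 2.3.3 and matplotlib 3.10.9 under Python 3.11.15. Alternatives were pseudocounts of 0.1 and 5 RPKM, no filter, a filter of 20 RPKM, rescaling, a 2-fold rule, ratios of RPKM + 1, the TPM columns and a 3-point running mean.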

Additional observations from a re-analysis of the deposited data

How the results depend on the processing

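No paired analysis was possible because there is 1 library per stage. The depth allows counting errors below most of the changes described, though some intervals given above include 1 or overlap. Nothing here measures differences between cultures. After rescaling, 3 members were higher at 0 h and 2 at 1 h over mitosis, 4 were lower and 1 higher at any hour over 0 h, and 3 were lower at 7 h and 3 at 8 h over 0 h. Rescaling also moved the highest hour of psm1 to 2 h and of cut1 to 6 h. At 6 h over 0 h it left 1 Smc5-Smc6 gene and 1 linear element gene lower, and 1 gene (hhp1) higher and 0 lower in the list for loading, removal and protection. By the 2-fold rule 7 members were higher at 2 h and 5 at 4, 5 and 6 h over mitosis, 1 was lower at any hour over mitosis, 1 was higher at any hour over 0 h, and 1, 6 and 8 were lower at 3, 4 and 8 h over 0 h. A pseudocount of 5 left 2 members higher at 1 h over mitosis. At 6, 7 and 8 h over mitosis it left 1, cut2, since rec8 and rec11 no longer passed. Over 0 h it left 1 and 3 lower at 4 and 8 h. A pseudocount of 0.1 made 1 member lower at any hour over mitosis, and a filter of 20 RPKM left 1 higher at 7 h and 1 at 8 h. The 3-point mean put the highest hour at 1 h for rad21, psc3, psm1 and psm3 and at 2 h for rec8, rec11, mis4 and pds5. With RPKM + 1 the ratio of rec8 to rad21 in mitosis was 0.128, and that of rec11 to psc3 was 0.401 in mitosis and 9.41, 8.26, 7.25, 5.53, 4.54 and 4.16 at 1, 2, 4, 5, 6 and 7 h. From the deposited TPM columns rec8 over rad21 was 11.6, 1.64, 3.46, 3.38 and 2.06 at 1, 5, 6, 7 and 8 h, and rec11 over psc3 was 6.62, 14.5, 10.9 and 5.10 at 2, 3, 4 and 5 h. There psm1 over psm3 at 2 h was 1.14, on the other side of 1. Leaving out the library of any 1 hour moved no count over any hour past 1.5 times. For the changes of the 10 genes at 0 h and 6 h over mitosis, 6 h over 0 h and 4 h over 3 h, 58 of 120 alternative values (rescaling and both pseudocounts) lay within the counting interval, 62 outside it, and 0 changed sign. Over all 180 changes computed, 11 changed sign on rescaling, none of them larger than 0.40 (log2) as deposited.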

Other observations

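Hexamer density was also set against change over all genes. Among genes outside the 10 described above, 194 with 4 or more hexamers per kilobase and 4091 with fewer were tested at 0 h over mitosis. Of those with dense hexamers 42 were 4-fold higher, or 21.6%, and of the others 8.58%. At 4 h over 3 h 12.2% of those with dense hexamers and 4.74% of the others were 2-fold lower. The medians lay closer together. The median change was 0.65 (log2) with dense hexamers and 0.52 without at 0 h over mitosis. It was -0.03 and 0.05 at 4 h over 3 h. The shares after rescaling were 19.8% and 5.30% at 0 h, and 12.3% and 4.96% at 4 h. The number of 4 per kilobase was chosen after the values of rec8 and rec11 had been seen.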
